A study of Homo sapiens with 6 samples.

Results

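A panel of 9 genes that encode surface or secreted antigens of ovarian tumors were followed in OVCAR-3 cells with and without knockdown of COX-1. The genes were MUC16, MUC1, MUC4, MSLN, WFDC2, FOLR1, SLC34A2, EPCAM and SLPI. They were chosen by symbol, and all were among the 34811 genes of the count table. OVCAR-3 is an established human ovarian carcinoma cell line used as a model of high-grade serous disease. OV3/COX1KD cells carried a pRS shRNA HuSH-29 plasmid against COX-1, the enzyme that starts prostaglandin synthesis from arachidonic acid, and OV3/SCR cells carried a scrambled shRNA on the same vector. Both were stable clones of the same parental cells selected with puromycin. RNA-seq was performed on 3 independent passages of OV3/SCR clone #1 and 3 of OV3/COX1KD clone #2. Each condition was therefore 1 clone, and the knockdown and the clone cannot be told apart. The p-values measure the spread between passages of a clone.

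These antigens are the basis of much of the serum testing and antibody therapy of ovarian cancer. MUC16 is a very large membrane-bound mucin whose shed ectodomain is the serum marker CA125, and MUC1 and MUC4 are shorter members of the same class of heavily O-glycosylated surface proteins. Mesothelin (MSLN), which binds the sugar chains of MUC16, and folate receptor alpha (FOLR1) are held on the membrane by a GPI lipid anchor. SLC34A2, a sodium-dependent phosphate transporter, and EPCAM, an epithelial adhesion molecule, span the membrane. WFDC2, the serum marker HE4, and SLPI, a leukocyte protease inhibitor, are small secreted proteins built on the WAP fold, a cysteine-rich domain.

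The libraries held between 25291505 and 27391538 reads counted on genes. At this depth the floor of 3 counts per library lay between 0.113 and 0.120 CPM (counts relative to the TMM-scaled library size), and such floors cover counting error only. Pairs of libraries of one clone had Pearson correlations of log2 CPM between 0.994 and 0.995 across genes, against 0.976 to 0.979 for pairs from different clones. These correlations run over genes, which share libraries and do not count as replicates. The targeted gene, PTGS1, had 713, 658 and 641 counts in OV3/SCR and 456, 486 and 501 in OV3/COX1KD. Its level in OV3/COX1KD was 73.3% of the control (log2 fold change -0.45, standard error 0.057, edgeR FDR = 1.3e-06). In these counts the mRNA was thus lower in every knockdown library but most of it remained. The paper reports that the mRNA knockdown was also verified by quantitative RT-PCR, and its text gives no size. For the protein, the paper reports a strong reduction of COX-1 in this clone by Western blot. It also reports markedly lower prostaglandin production from arachidonic acid in the knockdown cells. A fixed list of 9 Mullerian epithelial markers was abundant as a sum, at 5073 to 5132 CPM in OV3/SCR and 6384 to 6523 in OV3/COX1KD. The keratins KRT7, KRT8, KRT18 and KRT19 carried most of this sum, so it does not by itself show a Mullerian lineage. Of the lineage factors, PAX8 had means of 756 CPM in OV3/SCR and 447 in OV3/COX1KD, and WT1 had 99.3 and 132. The 4 fixed lists of markers of other cell types had far lower summed levels than the Mullerian list. Summed levels were 1.24 to 1.54 CPM in OV3/SCR and 0.676 to 1.28 in OV3/COX1KD for 5 leukocyte genes, and 2.46 to 3.23 and 2.87 to 3.57 CPM for 3 endothelial genes. The 7 fibroblast genes summed to 12.7 to 13.6 CPM in OV3/SCR and 8.56 to 9.58 in OV3/COX1KD. The 6 mesothelial genes summed to 24.2 to 27.5 CPM in OV3/SCR and 37.9 to 39.5 in OV3/COX1KD. MSLN is also a gene of mesothelium, and of those 6 genes UPK3B carried most of the sum and rose, whereas KRT5 and LRRN4 had log2 fold changes of -0.15 (edgeR FDR = 0.168) and -0.091 (edgeR FDR = 0.717). CALB2, a defining mesothelial gene, had between 6 and 15 counts per library and PDPN and DES were at or under 3 counts in every library. The part of these markers in the antigen results was not tested. In bulk RNA, fewer cells expressing a gene and less RNA per cell cannot be told apart.

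Promoter sequences are shown for MUC16, the antigen with the largest rise, and for MUC1 and WFDC2, the antigens that fell. RefSeq, on GRCh38.p14, gave promoter windows for 5 of the 9 genes. FOLR1, MSLN, EPCAM and SLPI are named only. Each window covers the 250 bases before an annotated start and reads 5′ to 3′ on the gene's strand. Capitals mark matches on either strand to any of 6 motifs. The TATA box was searched as TATAAA. The GC box, the site of SP1-type factors, was searched as GGGCGG. The E-box of helix-loop-helix factors was searched as CANNTG. The cAMP response element was searched as its core TGACG. The AP-1 site was searched as TGACTCA, and the site of TEAD factors as GGAATG. MUC16 has 2 annotated starts, upstream at chr19:9065752-9066001 and downstream at chr19:9010410-9010659. MUC1 also has 2 windows, which overlap almost fully, and the 1 shown is chr1:155192916-155193165, all 3 of these on the minus strand, and the WFDC2 window is chr20:45469503-45469752 on the plus strand.
MUC16 upstream start: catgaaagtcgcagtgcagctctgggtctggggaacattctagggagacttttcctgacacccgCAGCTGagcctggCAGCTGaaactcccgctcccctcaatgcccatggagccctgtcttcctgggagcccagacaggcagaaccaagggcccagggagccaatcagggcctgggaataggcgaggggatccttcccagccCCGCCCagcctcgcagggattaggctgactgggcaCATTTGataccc
MUC16 downstream start: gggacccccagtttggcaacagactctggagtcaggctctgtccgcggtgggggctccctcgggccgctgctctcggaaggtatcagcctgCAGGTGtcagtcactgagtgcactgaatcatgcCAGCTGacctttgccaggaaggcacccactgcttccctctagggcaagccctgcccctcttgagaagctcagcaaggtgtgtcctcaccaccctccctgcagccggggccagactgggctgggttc
MUC1: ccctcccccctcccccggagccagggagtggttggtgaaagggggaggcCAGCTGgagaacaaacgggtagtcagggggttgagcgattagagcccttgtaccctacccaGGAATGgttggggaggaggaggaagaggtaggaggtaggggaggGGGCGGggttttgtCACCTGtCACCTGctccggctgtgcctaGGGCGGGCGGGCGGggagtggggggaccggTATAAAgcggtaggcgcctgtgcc
WFDC2: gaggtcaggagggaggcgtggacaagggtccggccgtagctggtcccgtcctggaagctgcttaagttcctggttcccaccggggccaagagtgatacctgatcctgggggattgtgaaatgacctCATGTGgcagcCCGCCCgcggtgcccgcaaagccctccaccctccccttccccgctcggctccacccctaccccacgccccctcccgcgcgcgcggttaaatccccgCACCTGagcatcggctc

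All 4 windows held E-box matches, 3 at the upstream and 2 at the downstream MUC16 start, 3 in MUC1 and 2 in WFDC2. Of all 35116 RefSeq windows, 61.8% held at least 1. A GC box match was found at the upstream MUC16 start, in MUC1 (4 matches, 3 of them overlapping in 1 run) and in WFDC2, against 42.6% of all windows. MUC1 alone of these 4 windows had a TATA box match, which 10.7% of all windows held, and a TEAD site match, which 11.9% held. The cAMP core TGACG, present in 21.2% of all windows, and TGACTCA, present in 4.20%, were not among the letters of these 4 windows. A match describes the sequence and does not show binding.

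Of the 9 antigen genes, 8 passed the filter on low counts and 7 differed between the clones at an FDR (false discovery rate, Benjamini-Hochberg) under 0.01 by edgeR's quasi-likelihood test. Of these, 5 were higher in OV3/COX1KD (MUC16, FOLR1, MSLN, SLC34A2 and EPCAM) and 2 were lower (MUC1 and WFDC2). SLPI did not pass the threshold, and MUC4 was too scarce to be tested. Over all 17309 tested genes 47.9% were called, 25.8% as higher and 22.1% as lower in OV3/COX1KD, so a call by itself was common. With total counts in place of TMM scaling the split over all genes was 3466 higher and 4978 lower, against 4473 and 3820, and the antigens gave 5 higher and 3 lower. The median log2 fold change was 0.45 over the 8 tested antigens and -0.0087 over all tested genes. By class, both GPI-anchored antigens and both non-mucin transmembrane antigens rose, the mucins MUC16 and MUC1 moved in opposite directions, and of the secreted WAP proteins 1 fell and 1 did not pass the test.

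**Figure D1:**
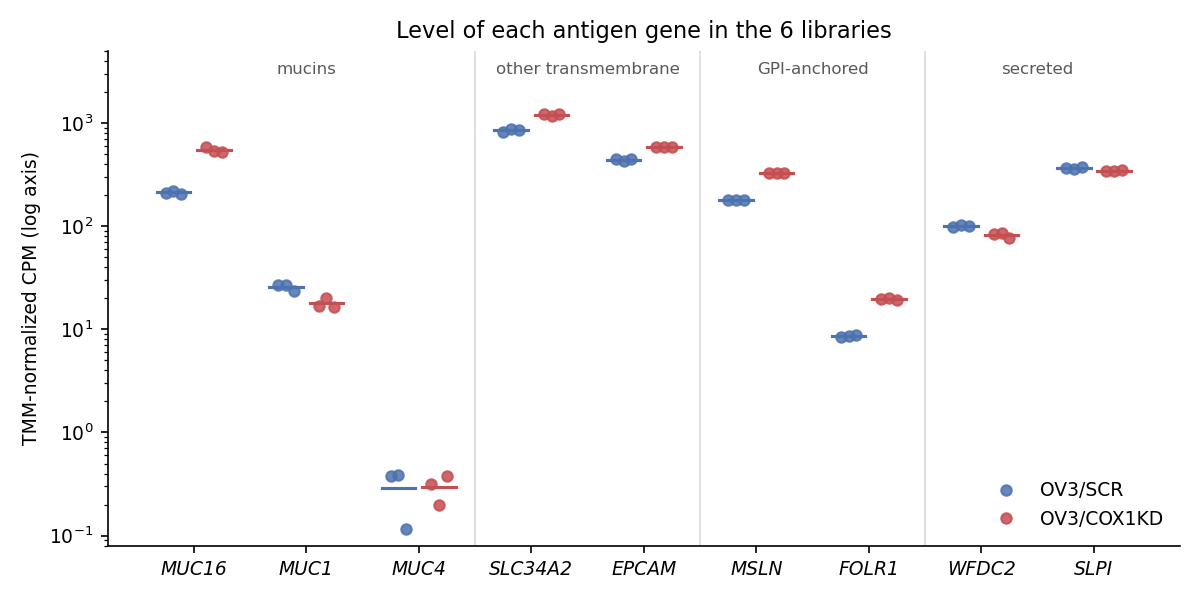
Level of each antigen gene in the 6 libraries, in TMM-normalized CPM on a log axis. Points are single libraries (OV3/SCR blue, OV3/COX1KD red), horizontal lines are means of 3 libraries, and genes are ordered by class. The points of the clones overlap for MUC4 and are separate for the 8 other genes, with means of 212 and 543 CPM for MUC16 and, with the narrowest gap, 366 and 344 CPM for SLPI.

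Among the mucins, MUC16 (ENSG00000181143, chromosome 19 of GRCh37 from 8959520 to 9121066, minus strand) had 5553, 5753 and 5315 counts in OV3/SCR and 14578, 13275 and 13819 in OV3/COX1KD. The lowest OV3/COX1KD library was 2.35 times the highest OV3/SCR library after scaling, so the clones were far apart. Its level was 212 ± 8.09 CPM (SD, n = 3) in OV3/SCR and 543 ± 32.2 CPM (SD, n = 3) in OV3/COX1KD, a log2 fold change of 1.36 (standard error 0.039, 95% interval 1.28 to 1.44, edgeR FDR = 4.4e-16). This 2.56-fold rise was larger in size than the change of 96.3% of tested genes. It was the only antigen past the study's fold change limit of 2.5, which 1.58% of tested genes passed upward and 2.34% downward. The fold lay above 2.5 in 13 of 15 settings. It was 2.43 with total count scaling, and without OV3/COX1KD replicate 1 the log2 fold change was 1.31, just under that limit.

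MUC1 (ENSG00000185499, chromosome 1 from 155158300 to 155162707, minus strand) had 720, 705 and 608 counts in OV3/SCR and 425, 504 and 440 in OV3/COX1KD. All OV3/COX1KD libraries were below all OV3/SCR libraries, with OV3/COX1KD replicate 2 nearest to the control. The level fell from 25.9 ± 2.03 to 17.8 ± 1.98 CPM (SD, n = 3 each), a log2 fold change of -0.54 (standard error 0.074, 95% interval -0.69 to -0.38, edgeR FDR = 3.7e-06). Other genes' exons covered 2.00% of its exon length. MUC1 and MUC16 therefore moved in opposite directions in the same cells.

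MUC4 (ENSG00000145113, chromosome 3 from 195473636 to 195538844, minus strand) was nearly silent, with 10, 10 and 3 counts in OV3/SCR and 8, 5 and 10 in OV3/COX1KD. The clones overlapped, with means of 0.292 and 0.298 CPM. The filter on low counts removed it, and in the fit without that filter its log2 fold change was 0.053 (standard error 0.47, edgeR FDR = 0.974). A difference in MUC4 was not detectable at this depth. MUC1, MUC4 and MUC16 contain tandem repeats, and how reads within repeats were counted is not given in the sources used here, so their levels are less certain than those of the other genes.

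MSLN (ENSG00000102854, chromosome 16 from 810734 to 818865, plus strand) had 4791, 4641 and 4593 counts in OV3/SCR and 8194, 8190 and 8635 in OV3/COX1KD. The 3 libraries of each clone lay within a few CPM of each other and the clones did not overlap. The level was 179 ± 1.08 CPM (SD, n = 3) in OV3/SCR and 326 ± 1.36 CPM (SD, n = 3) in OV3/COX1KD, a log2 fold change of 0.87 (standard error 0.028, 95% interval 0.81 to 0.93, edgeR FDR = 2.7e-15). The rise was 1.82-fold and larger in size than the change of 89.5% of tested genes.

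FOLR1 (ENSG00000110195, chromosome 11 from 71900602 to 71907367, plus strand) had 225, 225 and 226 counts in OV3/SCR and 491, 509 and 513 in OV3/COX1KD. The lowest OV3/COX1KD library was 2.20 times the highest OV3/SCR library after scaling. The level rose from 8.61 ± 0.153 to 19.7 ± 0.552 CPM (SD, n = 3 each), a log2 fold change of 1.19 (standard error 0.068, 95% interval 1.05 to 1.34, edgeR FDR = 1.2e-11). The interval overlapped that of MUC16, although FOLR1 had fewer counts than any other tested antigen in OV3/SCR. In OV3/COX1KD, MUC1 had fewer. FOLR2 and FOLR3, its close paralogs, had at most 1 and at most 7 counts per library.

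SLC34A2 (ENSG00000157765, chromosome 4 from 25649633 to 25680370, plus strand) was the antigen with the most reads, with 21829, 22920 and 21990 counts in OV3/SCR and 30855, 28973 and 32377 in OV3/COX1KD. The lowest OV3/COX1KD library was 1.31 times the highest OV3/SCR library after scaling. Its level was 850 ± 30.4 CPM (SD, n = 3) in OV3/SCR and 1199 ± 37.6 CPM (SD, n = 3) in OV3/COX1KD, a log2 fold change of 0.50 (standard error 0.032, 95% interval 0.43 to 0.56, edgeR FDR = 6.9e-11).

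EPCAM (ENSG00000119888, chromosome 2 from 47572297 to 47614740, plus strand) had 11839, 11237 and 11444 counts in OV3/SCR and 14603, 14522 and 15544 in OV3/COX1KD. The clones did not overlap, and the OV3/COX1KD libraries lay between 580 and 583 CPM. Its level rose from 439 ± 7.07 to 581 ± 2.09 CPM (SD, n = 3 each), a log2 fold change of 0.40 (95% interval 0.35 to 0.46, edgeR FDR = 1.8e-10). This was the smallest rise among the 5 antigens that rose.

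WFDC2 (ENSG00000101443, chromosome 20 from 44098393 to 44110172, plus strand) had 2593, 2669 and 2616 counts in OV3/SCR and 2099, 2148 and 2054 in OV3/COX1KD. Each knockdown library was below each control library. The level fell from 100.3 ± 2.69 to 82.1 ± 4.46 CPM (SD, n = 3 each), a log2 fold change of -0.29 (standard error 0.040, 95% interval -0.37 to -0.21, edgeR FDR = 4.1e-06). In size this change was close to the middle of the tested genes, 51.6% of which changed by less.

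SLPI (ENSG00000124107, chromosome 20 from 43880880 to 43883205, minus strand) had 9825, 9276 and 9685 counts in OV3/SCR and 8619, 8572 and 9247 in OV3/COX1KD. After scaling the clones were close but separate, at 356 to 375 CPM and 342 to 347 CPM. The log2 fold change of -0.092 (standard error 0.029, 95% interval -0.15 to -0.031, edgeR FDR = 0.0112) did not pass the threshold. Over the settings tried the FDR of SLPI lay between 4.7e-05 and 0.255, and offsets for GC content and length turned the direction, to a log2 fold change of 0.050. A direction for SLPI is therefore not given. The levels of the clones did not overlap for all 8 tested antigens, and neither did those of 63.2% of all tested genes, 32.5% with OV3/COX1KD higher and 30.7% with it lower.

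**Figure D2:**
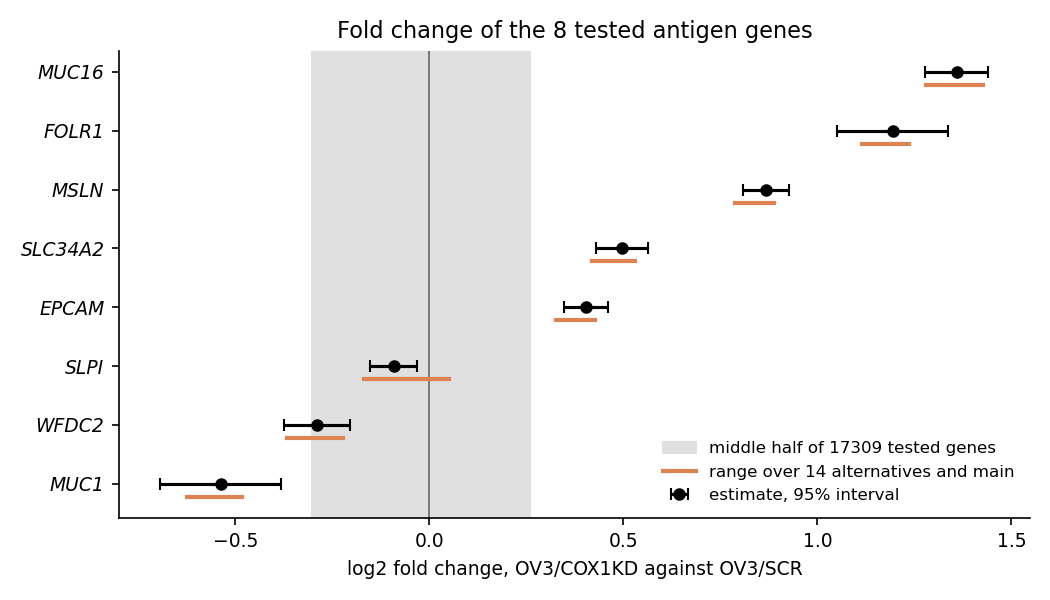
Log2 fold change of the 8 tested antigen genes, OV3/COX1KD against OV3/SCR. Black points are edgeR estimates with 95% intervals, orange lines the range over the main setting and 14 alternatives, and the grey band the interquartile range of 17309 tested genes, -0.30 to 0.26. MUC16, FOLR1, MSLN, SLC34A2, EPCAM and MUC1 lie outside the band, and only the orange line of SLPI crosses 0.

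Levels of different genes were compared per kb of exon, because the exons of MUC16 span 44165 bases and those of SLPI 596. On this scale the most abundant antigen mRNA was SLPI, at 615 ± 16.0 CPM per kb (SD, n = 3) in OV3/SCR and 577 ± 4.67 CPM per kb (SD, n = 3) in OV3/COX1KD. EPCAM and SLC34A2 followed, at 181 and 168 CPM per kb in OV3/SCR and 239 and 238 CPM per kb in OV3/COX1KD, where their ranges overlapped. Next in OV3/SCR came WFDC2, at 75.1 ± 2.02 CPM per kb, above MSLN, at 69.0 ± 0.419 CPM per kb (SD, n = 3 each). In OV3/COX1KD this order was turned, with MSLN at 126 ± 0.527 and WFDC2 at 61.5 ± 3.34 CPM per kb (SD, n = 3 each).

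The least abundant tested antigens were also reordered. In OV3/SCR, MUC1 had 10.8 ± 0.845 CPM per kb, FOLR1 5.38 ± 0.0955 and MUC16 4.79 ± 0.183 (SD, n = 3 each), and these ranges did not overlap. In OV3/COX1KD, FOLR1 at 12.3 ± 0.345 and MUC16 at 12.3 ± 0.730 CPM per kb overlapped, and both lay above MUC1 at 7.43 ± 0.824 CPM per kb (SD, n = 3 each). MUC16 thus had many reads but few per kb, near the level per kb of FOLR1 in both clones. MUC4 was last in both clones, at 0.0139 and 0.0142 CPM per kb. The order of all 9 genes in each clone was the same with the longest transcript as the length. The overlaps in OV3/COX1KD were not kept with that length. EPCAM was then at 376 and SLC34A2 at 291 CPM per kb, and FOLR1 at 14.8 and MUC16 at 12.4, with separate ranges in both pairs.

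**Figure D3:**
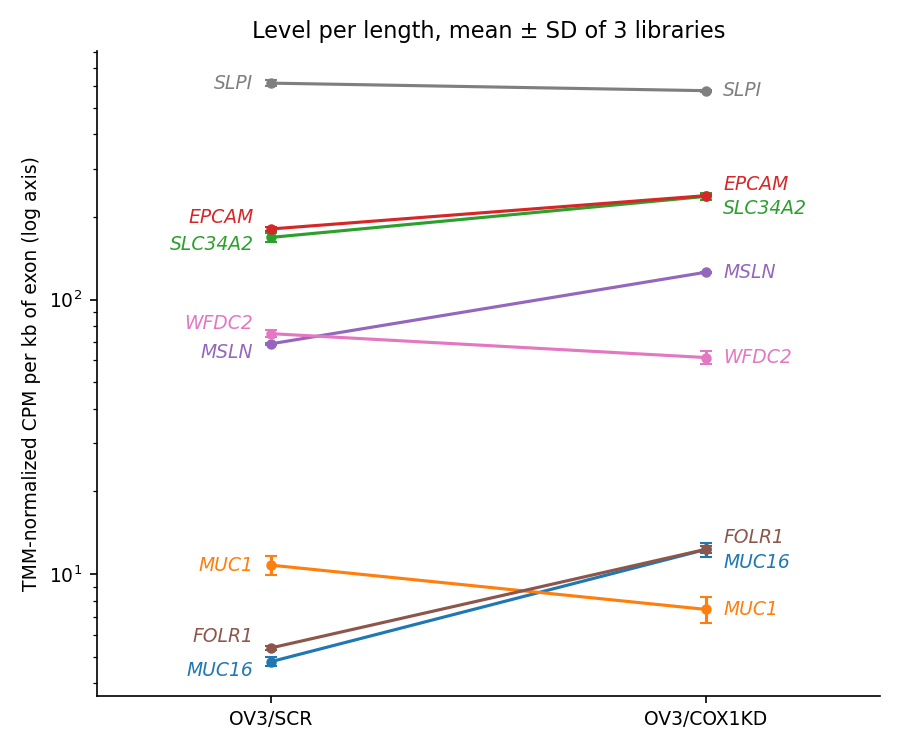
Level per kb of exon of the 8 tested antigen genes in OV3/SCR (left) and OV3/COX1KD (right), in TMM-normalized CPM per kb on a log axis, as mean ± SD of 3 libraries. The line of MSLN crosses that of WFDC2, and the lines of MUC16 and FOLR1 cross that of MUC1.

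Ratios of reads between antigens within a library do not depend on the scaling between libraries. Reads of MUC16 (CA125) per read of WFDC2 (HE4) numbered 2.14, 2.16 and 2.03 in OV3/SCR and 6.95, 6.18 and 6.73 in OV3/COX1KD. The mean ratio was 3.14 times higher in OV3/COX1KD, and the clones did not overlap. For MUC16 against MUC1 the ratio was 7.71, 8.16 and 8.74 in OV3/SCR and 34.3, 26.3 and 31.4 in OV3/COX1KD. For MUC16 against MSLN, its binding partner, it was 1.16, 1.24 and 1.16 in OV3/SCR and 1.78, 1.62 and 1.60 in OV3/COX1KD, so both genes rose but by unequal amounts. The ratio of WFDC2 to SLPI differed least, with 0.264, 0.288 and 0.270 in OV3/SCR and 0.244, 0.251 and 0.222 in OV3/COX1KD. These ratios were compared by their ranges and no test was run on them. Together the 9 genes took between 0.223% and 0.225% of all counted reads in OV3/SCR and between 0.299% and 0.307% in OV3/COX1KD. The share of MUC16 in the antigen reads was 9.41% to 10.0% in OV3/SCR and 16.7% to 18.3% in OV3/COX1KD.

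**Figure D4:**
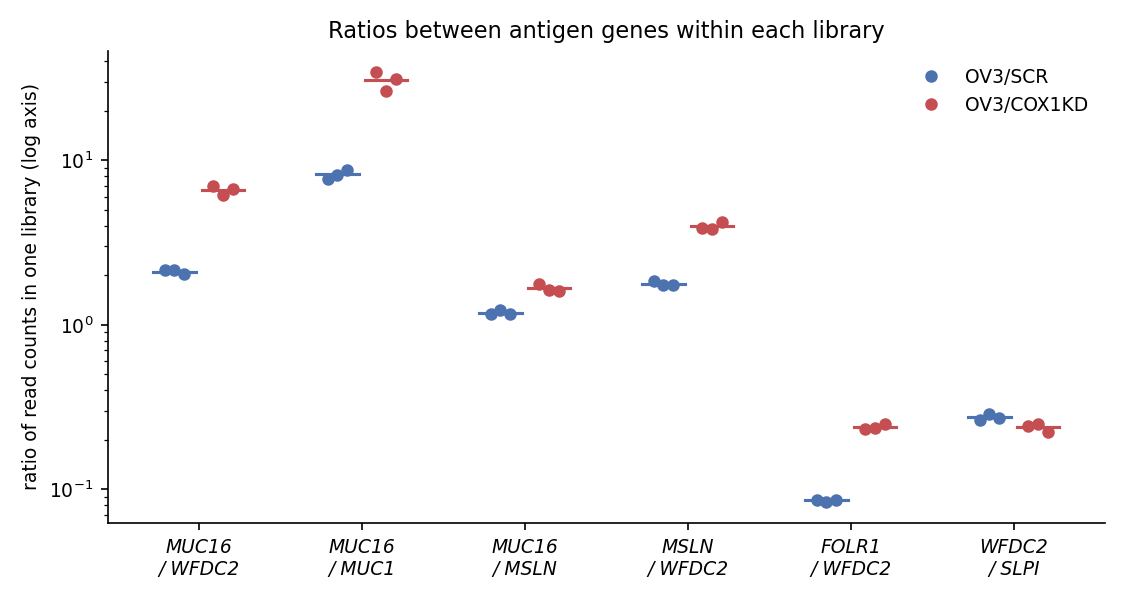
Ratio of read counts of pairs of antigen genes within each library, on a log axis. Points are single libraries (OV3/SCR blue, OV3/COX1KD red) and lines are means of 3. The points of the clones do not overlap in any of the 6 pairs, and the gap is widest for MUC16 against MUC1, with means of 8.20 and 30.7.

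The related genes were read from fixed lists. Of 11 transmembrane mucins 5 were tested, and 3 rose, MUC16 among them, and 1 fell, which was MUC1. The shares over all tested genes were 25.8% called higher and 22.1% called lower. Besides MUC16, MUC15 rose, from 53, 39 and 56 counts in OV3/SCR to 113, 144 and 133 in OV3/COX1KD (log2 fold change 1.43, standard error 0.16, edgeR FDR = 1.7e-07). MUC20, which lies next to MUC4, rose from 88, 85 and 87 counts to 170, 145 and 156 (log2 fold change 0.89, standard error 0.12, edgeR FDR = 2.2e-06). MUC21, named after its values were seen, was too scarce for the main test. It had 9, 11 and 12 counts in OV3/SCR and 0, 1 and 2 in OV3/COX1KD. Without the filter this list of mucins gave 3 rises and 2 falls. The same split came without OV3/SCR replicate 1 and without each OV3/COX1KD replicate in turn. These totals do not name the second gene that fell. MUC12, MUC13, MUC17 and MUC22 were at or under 3 counts in every library. Of the 4 gel-forming or secreted mucins in the table, MUC5B was the one gene tested, named here after its values were seen, with 9, 5 and 5 counts in OV3/SCR and 69, 31 and 78 in OV3/COX1KD. It passed the filter on low counts only through OV3/COX1KD, where it was high, so these counts are given as a description.

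Mucins carry O-linked sugars that GALNT enzymes start and other transferases extend. Of 17 tested genes of O-glycosylation 8 rose, 3 fell and 6 did not pass, with a median log2 fold change of 0.36, and over all tested genes 25.8% were called higher and 22.1% lower. GALNT12, which starts chains, had 58, 55 and 47 counts in OV3/SCR and 105, 103 and 103 in OV3/COX1KD (log2 fold change 0.99, edgeR FDR = 6.3e-06). GCNT1, which branches the core, had 410, 419 and 440 counts and 744, 699 and 794 counts (log2 fold change 0.85, edgeR FDR = 2.1e-10). ST6GALNAC1, which caps the first sugar with sialic acid, fell from 347, 325 and 346 counts to 204, 209 and 203 (log2 fold change -0.69, edgeR FDR = 2.6e-07), and GALNT14 fell by 0.46 on the log2 scale (edgeR FDR = 3.8e-06). With total count scaling the list gave 7 rises and 4 falls. Of the MUC16 binding partners, the galectin gene LGALS1 had a log2 fold change of 0.29 (edgeR FDR = 0.0031), a call that was lost with total count scaling, by DESeq2 or without OV3/SCR replicate 1, and LGALS3 had a log2 fold change of -0.040 (edgeR FDR = 0.248).

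Of 11 counted WAP domain genes, 5 were tested, 2 fell, WFDC2 among them, and 3 did not pass. For comparison, 25.8% of all tested genes were called higher and 22.1% lower. PI3, the elastase inhibitor elafin and the nearest tested gene to SLPI on one side, had 2744, 2816 and 2580 counts in OV3/SCR and 705, 715 and 744 in OV3/COX1KD. Its clones were far apart, and it fell by 1.88 on the log2 scale (standard error 0.042, edgeR FDR = 1.5e-17). This was much more than the fall of WFDC2 in the same gene cluster, where SLPI is given no direction. The summed level of the WAP genes was 569 to 578 CPM in OV3/SCR and 454 to 458 CPM in OV3/COX1KD. PI3, with means of 104 and 28.2 CPM, made up the largest part of this difference.

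Of 6 tested genes of folate uptake and retention 4 rose, FOLR1 itself among them, and 2 did not pass. The background for this and the next lists is that 25.8% of all tested genes were called higher and 22.1% lower. Beside FOLR1, GGH, the enzyme that trims folate polyglutamates, had a log2 fold change of 0.56 (edgeR FDR = 1.9e-11), smaller than that of FOLR1. Of 5 tested phosphate transporters 2 rose, SLC34A2 itself among them, and 1 fell. XPR1, a phosphate exporter, had a log2 fold change of 0.63 (edgeR FDR = 4.4e-12), while SLC20A1, another sodium-dependent importer, fell by 0.27 on the log2 scale (edgeR FDR = 3.7e-06). Of 7 tested genes of EPCAM partners and cleavage 4 rose, EPCAM itself among them, and 1 fell. CLDN7, a claudin that binds EPCAM, had a log2 fold change of 0.66 (edgeR FDR = 3.2e-12), whereas the hyaluronan receptor gene CD44 fell by 1.01 on the log2 scale (edgeR FDR = 6.3e-13).

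The genes around each antigen were compared with it, taking all tested genes with a midpoint within 500 kb in GRCh37. Around MUC16, none of 9 tested genes passed an FDR of 0.01 by edgeR or DESeq2, 4 had an unadjusted p under 0.05, all of them lower, and the highest log2 fold change was 0.26. Over all tested genes 25.8% were called higher and 22.1% lower, which is the background for these and the following windows. The nearest to MUC16 on either side were ZNF558, at -0.14, and ZNF317, at -0.083. None of these neighbours rose with MUC16. Around FOLR1, 4 of 14 rose and 4 fell, the highest log2 fold change being 0.34, and its nearest tested neighbours ANAPC15 and INPPL1 had 0.069 and -0.26. Around SLC34A2, 3 of 5 rose and none was above it, with SEL1L3 at 0.33 and ANAPC4 at -0.29 next to it.

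MSLN lay among 41 tested genes of which 12 rose and 10 fell, and 5 had a higher log2 fold change. MSLNL, a paralog beside it, had a log2 fold change of -0.045 (edgeR FDR = 0.571), and NARFL on the other side fell by 0.36 on the log2 scale. Around EPCAM 2 of 10 rose and 1 fell, with BCYRN1 at 0.12 next to it on one side. The genes that rose there, named after their values were seen, were MCFD2, at 0.46, and AC073283.7, which passed the filter on low counts only through OV3/COX1KD and whose fold is not given. Around MUC1, 10 of 37 rose and 11 fell, and its neighbour TRIM46 fell by 0.48 on the log2 scale (edgeR FDR = 8.2e-06) while RP11-263K19.4 had 0.063 (edgeR FDR = 0.753). Around WFDC2, 6 of 23 rose and 5 fell, with PIGT at 0.34 and SPINLW1 at -0.36 (edgeR FDR = 0.413) beside it. The window of SLPI, which overlaps that of WFDC2 with midpoints 222 kb apart, held 15 tested genes. Of these 4 rose and 5 fell, PI3 and WFDC2 itself among the latter. Around MUC4, 5 of 14 rose and 6 fell, with MUC20 on one side and TNK2, which fell by 0.44 on the log2 scale, on the other. The falls there include ENSG00000271662, named after its values were seen, which was scarce at a mean log2 CPM of -0.87. By DESeq2 the rises and falls were 4 and 5 around MUC4, 3 and 3 around FOLR1, 11 and 10 around MSLN and 6 and 4 around WFDC2. In the other windows DESeq2 gave the same counts.

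**Figure D5:**
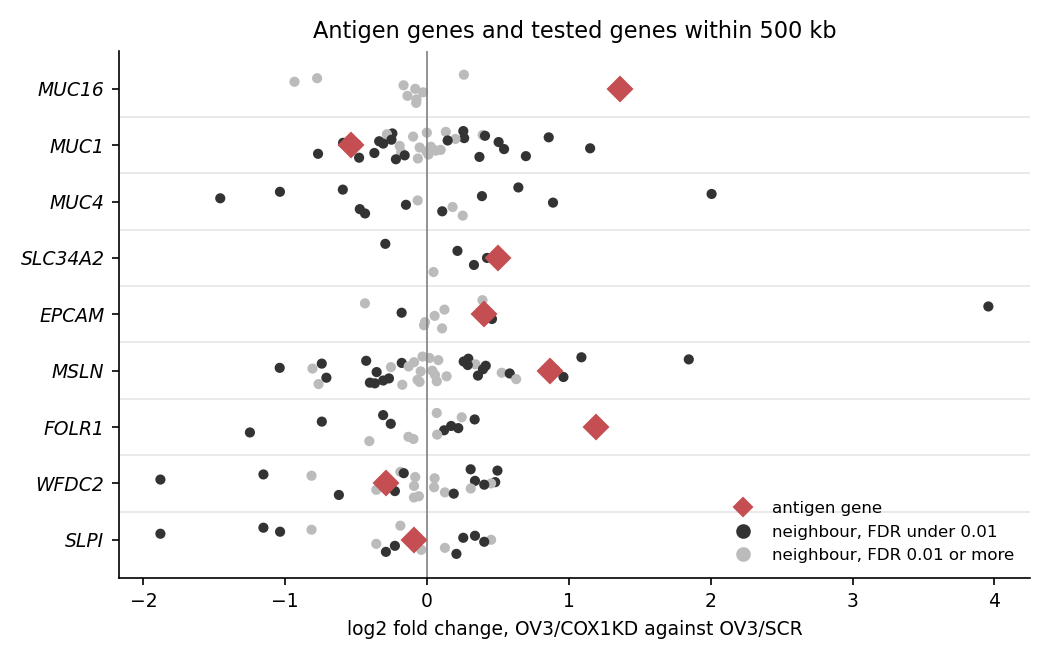
Log2 fold change, OV3/COX1KD against OV3/SCR, of each tested antigen gene (red diamond) and of the tested genes within 500 kb of it (black where the edgeR FDR is under 0.01, grey otherwise). The MUC16 diamond at 1.36 and the FOLR1 diamond at 1.19 stand above all their 9 and 14 neighbours, and MUC4 has no diamond because it was not tested.

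Over the 6 libraries, the genes whose log2 CPM, centred on the gene's mean, lay closest to that of MUC16 among 13011 genes were PRDX2, an antioxidant peroxidase, KAL1, the extracellular protein anosmin, and TGIF2, a transcriptional repressor, at root mean square differences of 0.052, 0.053 and 0.053. Closest to MUC1 were CIITA, the regulator of class II antigen presentation genes, GBAP1, a pseudogene within 500 kb of MUC1, and CDK10, a kinase, at 0.027, 0.031 and 0.041. The log2 fold changes of PRDX2, KAL1 and TGIF2 were 1.35, 1.33 and 1.29, and those of CIITA, GBAP1 and CDK10 were -0.51, -0.59 and -0.51. These genes were picked for closeness over the same 6 libraries, so fold changes like those of MUC16 and MUC1 follow from the choice.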

How the data were processed

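RNA-seq was performed on 3 OV3/SCR and 3 OV3/COX1KD libraries. Alignment by the authors used TopHat2 against hg19, HTSeq gave the number of reads per gene, and the deposited values are raw counts without normalization. The gene annotation and the strand setting are not given in the sources used here. Conditions and replicate numbers came from the labels. The main test was run in edgeR 4.0.16 under R 4.3.3 (TMM scaling, filterByExpr, glmQLFit and glmQLFTest with condition as the only factor, Benjamini-Hochberg adjustment over 17309 tested genes of 34811, threshold FDR 0.01 as in the study). Standard errors are the log2 fold change divided by the square root of F. Coordinates and exon lengths follow GENCODE 44 as lifted to GRCh37, which is hg19, with an entry for 33556 genes. The alternatives were RLE factors, total counts, DESeq2 1.42.0, no filter, a minimum of 10 counts in each library, the replicate number as a block, GC and length offsets, and each library left out in turn. The test was tested on simulated data. The antigens, the gene lists and the alternatives were chosen with earlier results of these data known. Besides the 9 antigens and PTGS1, genes are named by a fixed rule, up to 2 of the largest rises and 2 of the largest falls per list at an FDR under 0.01 and a mean log2 CPM of at least 1, the nearest tested neighbours, and the 3 genes most like the antigen with the largest rise and the one with the largest fall. Genes named outside it were chosen after their values were seen. Some genes that this rule names are not reported here.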

Additional observations from a re-analysis of the deposited data

How the results depend on the processing

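Direction and call of the 7 called antigens and of PTGS1 were the same in all 14 alternatives. SLPI alone changed. Its log2 fold change passed an FDR of 0.01 with total counts (-0.17) and at least 10 counts in every library (-0.11), and turned to 0.050 with GC and length offsets and 0.049 with these and the replicate block, without passing. When each library was left out it ranged from -0.11 to -0.072, passing without OV3/SCR replicate 2 or OV3/COX1KD replicate 2. The cause was not tested. MUC4 could be tested without the filter, at 0.053, and without OV3/SCR replicate 3 or OV3/COX1KD replicate 2, at -0.34 and 0.25, and passed in none. The replicate block gave 8233 genes against 8293 and the same 7 antigens. Same-numbered libraries had correlations of their deviations of 0.0015 to 0.048 across genes, none over 0.1. Libraries of different number had -0.042 to 0.020, and 4 of 6 libraries correlated best with their own number. With 3 libraries per clone, these values cannot show whether same-numbered libraries shared handling. Without OV3/COX1KD replicate 2 MUC1 was at -0.62, and without OV3/COX1KD replicate 3 at -0.48. The count of called genes lay between 7124 and 8989 with a library left out. The highest count came without OV3/COX1KD replicate 2, the only library whose removal raised it above the 8293 of the main setting.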

Other observations

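Among other antigens of ovarian tumors, 4 of 12 tested genes were higher in OV3/COX1KD, 5 were lower and 3 did not pass the test. As a background, 25.8% of all tested genes were called higher and 22.1% lower. SPP1, which encodes the secreted phosphoprotein osteopontin, had 871, 789 and 829 counts in OV3/SCR and 82, 86 and 127 in OV3/COX1KD, and fell by 3.04 on the log2 scale (standard error 0.092, edgeR FDR = 9.3e-16). CLDN6, an oncofetal claudin, had 722, 731 and 707 counts in OV3/SCR and 360, 368 and 384 in OV3/COX1KD, and fell by 0.93 on the log2 scale (edgeR FDR = 3.1e-11). CDH6, a cadherin targeted by antibody conjugates, was counted more than any of the 9 antigens, with 27772, 27955 and 27548 counts in OV3/SCR and 42190, 39076 and 44077 in OV3/COX1KD (log2 fold change 0.62, edgeR FDR = 1.1e-12). PVRL4, the nectin-4 gene, had a log2 fold change of 0.42 (edgeR FDR = 6.1e-05). Of these calls PRAME and LCN2, named after their values were seen, were lost in 8 and 3 of the alternatives.

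Among 9 Mullerian epithelial markers 7 were higher and 2 lower in OV3/COX1KD. The shares over all tested genes, also for the marker lists that follow, were 25.8% higher and 22.1% lower. The claudin genes CLDN3 and CLDN4 had log2 fold changes of 1.80 and 1.12 (edgeR FDR = 5.8e-16 and 6.1e-16). PAX8, the lineage transcription factor, had 19790, 20262 and 19370 counts in OV3/SCR and 11233, 11791 and 11271 in OV3/COX1KD and fell by 0.76 on the log2 scale (edgeR FDR = 4.3e-13), and KRT7 fell by 0.14 (edgeR FDR = 1.0e-04). Of 3 tested mesothelial markers 1 rose, UPK3B with a log2 fold change of 0.92 (edgeR FDR = 7.6e-11), and 2 did not pass. Of 4 tested fibroblast markers 1 fell, COL1A1 by 0.77 on the log2 scale (edgeR FDR = 5.3e-07), and 3 did not pass, among them FAP at 0.27 (edgeR FDR = 0.207).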
